A study of Mus musculus with 5 samples.

Results

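The miR-23, miR-27 and miR-24 microRNAs (miRNAs) of mouse testis cells are described here: mmu-miR-23a, mmu-miR-27a, mmu-miR-23b, mmu-miR-27b and mmu-miR-24. They come from a pair of hairpin clusters in the genome. The members were chosen by name, as 1 cluster against the other, with earlier results of these data known. Their levels in the cell groups are therefore given as a description. All 5 had counts in each of the 5 libraries, and 593 mature names had a count in at least 1 of them. Below, the mouse prefix is dropped from the names, and the less abundant partner strand of a hairpin carries an asterisk.

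All cells came from testes of C57BL/6 mice and were separated with a magnetic antibody to the surface protein Thy1.2. Selection for Thy1 enriches spermatogonial stem cells, from which sperm production starts. Of the libraries, 2 held the freshly isolated Thy1+ fraction, enriched for these stem cells, and 2 held the freshly isolated Thy1- fraction, depleted of them and enriched for somatic cells. The last held a germ cell culture grown from the Thy1+ fraction for about 10 passages. Ages and treatments of the mice are not given in the labels, and no label says that replicates came from separate animals. The p-values below thus measure the spread between these libraries only.

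The libraries held 937002 and 947687 counts in Thy1+, 2548234 and 4909753 in Thy1-, and 5110007 in the culture. Levels are counts per 1000000 miRNA counts of a library (CPM). They are shares, so a few abundant miRNAs can lower all others. In bulk samples, fewer cells of a type and less RNA per cell cannot be told apart.

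A miRNA cluster is transcribed as 1 long RNA, from which several hairpins are cut, and each hairpin yields a mature strand and a less abundant partner. The mature strand guides the silencing complex to messenger RNAs mainly through its seed, the bases near its 5′ end. The miR-23, miR-27 and miR-24 clusters are known from endothelial, blood, muscle and fat cells. miR-27 is known to hold back the formation of fat cells by repressing Pparg. miR-23 represses a mitochondrial glutaminase and miR-24 represses cell-cycle genes such as MYC, both shown in human cells.

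The mature sequences are shown because each a form and its b form share a seed and differ at 1 base near the 3′ end, on which all assignments below rest. Letters are those of the deposited tags (DNA letters, 5′ to 3′), with the seed, bases 2 to 8, in capitals.
mmu-miR-23a: aTCACATTgccagggatttcc
mmu-miR-23b: aTCACATTgccagggattacc
mmu-miR-27a: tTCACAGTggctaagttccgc
mmu-miR-27b: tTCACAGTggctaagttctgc
mmu-miR-24: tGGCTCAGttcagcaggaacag
miR-23a and miR-23b are 21 bases long and differ by T19A, counted from 1 at the 5′ end. miR-27a and miR-27b are also 21 bases long and differ by C19T. miR-24, of 22 bases, is the same from both clusters and cannot be assigned to either.

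The partner strands carry what miR-24 lacks, a difference between its hairpins. They are shown with bases 2 to 8 in capitals as well.
mmu-miR-27a*: aGGGCTTAgctgcttgtgagca
mmu-miR-27b*: aGAGCTTAgctgattggtgaac
mmu-miR-24-1*: gTGCCTACtgagctgatatcagt
mmu-miR-24-2*: gTGCCTACtgagctgaaacagt
miR-24-1* and miR-24-2* share their first 16 bases and differ beyond. No partner strand of miR-23a or miR-23b was among the names in the files. Of these 9 sequences, all but that of miR-23b matched a mature RefSeq entry letter for letter, and miR-23b was found within its RefSeq hairpin.

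In GRCm38.p6 the a cluster spans 404 bases of the plus strand of chromosome 8, from 84208518 to 84208921. The Mir23a hairpin runs from 84208518 to 84208592, Mir27a from 84208672 to 84208758 and Mir24-2 from 84208815 to 84208921. The GENCODE annotation places Mir24-2 in an exon of the long noncoding RNA Gm26532 and no gene over the other hairpins. The nearest protein-coding gene is Zswim4, on the minus strand. The b cluster spans 792 bases of the plus strand of chromosome 13. Mir23b lies at 63300484 to 63300557, Mir27b at 63300712 to 63300784 and Mir24-1 at 63301208 to 63301275. All 3 lie within 2010111I01Rik on the same strand, Mir27b and Mir24-1 in an annotated exon of it, and opposite Fancc.

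miR-24 and miR-27b were the most abundant of the 5 members in every library, and the levels of the a forms ran from low in Thy1- through Thy1+ to high in the culture. miR-23a stood at 391 and 418 CPM in Thy1+, at 217 and 171 CPM in Thy1-, and at 1148 CPM in the culture. Both Thy1+ libraries were above both Thy1- libraries, and the culture was above all 4. miR-27a was at 1121 and 1307 CPM in Thy1+, 642 and 337 CPM in Thy1-, and 1387 CPM in the culture. The fresh fractions again did not overlap, while the culture lay only a little above the higher Thy1+ library. How many of all miRNAs had fresh fractions that did not overlap was not counted. Here and below, nothing is read from such separation. As group means, miR-23a was at 404 ± 19.3 CPM in the Thy1+ fraction and 194 ± 32.2 CPM in Thy1- (SD, n = 2), and miR-27a at 1214 ± 132 and 489 ± 215 CPM.

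The b forms followed another order. miR-23b was at 243 and 229 CPM in Thy1+, 330 and 315 CPM in Thy1-, and 424 CPM in the culture, so that the Thy1- libraries were above the Thy1+ libraries. The mean was 236 ± 10.1 CPM in the Thy1+ fraction and 323 ± 10.8 CPM in the Thy1- fraction (SD, n = 2). miR-27b was at 4621 and 2833 CPM in Thy1+, 5864 and 3820 CPM in Thy1-, and 2059 CPM in the culture. Here the fresh fractions overlapped, and the culture was the lowest library. The mean was 3727 ± 1264 CPM in the Thy1+ fraction and 4842 ± 1446 CPM in the Thy1- fraction (SD, n = 2).

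miR-24, made from both clusters, was at 6855 and 3570 CPM in Thy1+, 4237 and 2390 CPM in Thy1-, and 7532 CPM in the culture. The fresh fractions overlapped, with replicate 1 the higher library in each. The mean was 5212 ± 2323 CPM in the Thy1+ fraction and 3313 ± 1306 CPM in the Thy1- fraction (SD, n = 2). Among the miRNAs counted in each library miR-24 ranked 35th and 52nd in Thy1+, 45th and 57th in Thy1-, and 19th in the culture.

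**Figure D1:**
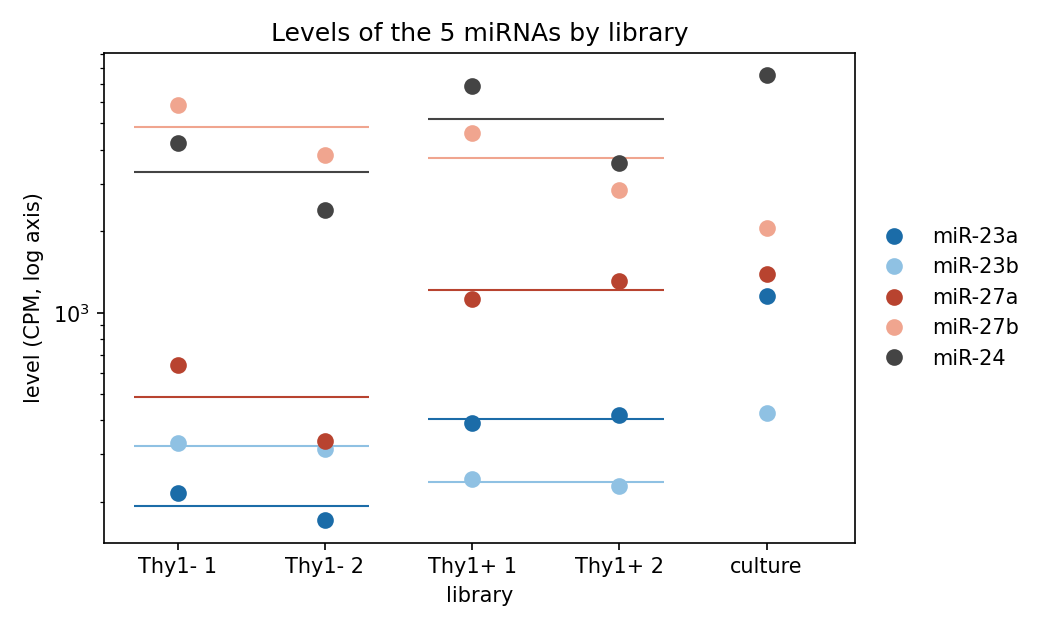
Level of each of the 5 miRNAs in CPM (vertical, log axis) in each library (horizontal); points are libraries, horizontal lines the means of the 2 libraries of a fresh fraction. miR-23a and miR-27a lie lowest in Thy1- and highest in the culture, where miR-27b is at its lowest, 2059 CPM.

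Within a library, the order of the levels differed between the groups. In Thy1- the order of the means was miR-27b, miR-24, miR-27a, miR-23b and miR-23a. The ranges of miR-27b and miR-24 overlapped there, while those of miR-27a, miR-23b and miR-23a did not. In Thy1+ miR-24 came first, with a range that overlapped that of miR-27b, followed by miR-27a, miR-23a and miR-23b without overlap. In the culture the order was miR-24, miR-27b, miR-27a, miR-23a and miR-23b. Together the 5 members held 1.32% and 0.836% of all counts in Thy1+, 1.13% and 0.703% in Thy1-, and 1.26% in the culture.

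Because an a form and its b form are counted in the same library, the share of the a form does not depend on how libraries are scaled. For miR-23, the a form made up 61.6% (95% Clopper-Pearson interval 57.6% to 65.5%) and 64.6% (60.7% to 68.4%) in Thy1+. It made up 39.6% (37.0% to 42.2%) and 35.2% (33.3% to 37.1%) in Thy1-, and 73.0% (72.0% to 74.0%) in the culture. The majority of miR-23 was thus the a form in Thy1+ and in the culture, and the b form in Thy1-. The group means were 63.1% ± 2.11 and 37.4% ± 3.12 (SD, n = 2). These intervals cover counting error only, since reads after PCR are not independent molecules.

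For miR-27, the b form was the majority in every library, but the groups stood in the same order. The a form made up 19.5% (18.5% to 20.6%) and 31.6% (30.1% to 33.1%) in Thy1+, 9.86% (9.41% to 10.3%) and 8.11% (7.74% to 8.50%) in Thy1-, and 40.3% (39.5% to 41.0%) in the culture. The 2 Thy1+ libraries differed from each other by more than their counting error, and both lay between Thy1- and the culture. The group means were 25.5% ± 8.53 and 8.99% ± 1.24 (SD, n = 2).

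The partner strands of miR-24, which do separate the hairpins, came mostly from chromosome 8. miR-24-2* made up 98.4% (96.2% to 99.5%) and 98.1% (96.2% to 99.2%) of both partner strands in Thy1+, 85.8% (82.0% to 89.0%) and 94.1% (92.2% to 95.6%) in Thy1-, and 98.7% (98.2% to 99.0%) in the culture. Both Thy1- libraries were the lowest. Strands of different hairpins can be kept at different rates, so this share is not the share of miR-24 itself that each cluster gives.

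**Figure D2:**
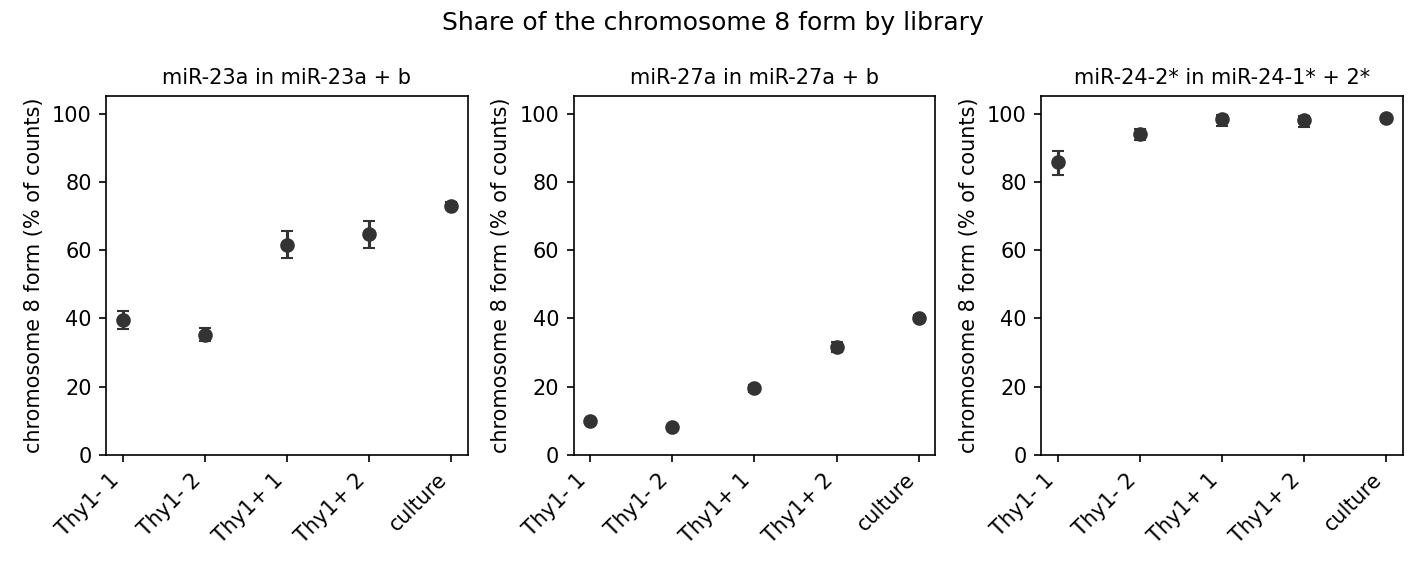
Share of the chromosome 8 form (vertical, percent of the counts of both forms) in each library (horizontal) for miR-23, miR-27 and the partner strands of miR-24; bars are 95% Clopper-Pearson intervals. In the miR-23 and miR-27 panels both Thy1- libraries lie below both Thy1+ libraries, and the culture lies above them.

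The ratios within a cluster differed between the culture and the fresh fractions. On chromosome 13, miR-27b had 18.99 and 12.4 times the counts of miR-23b in Thy1+, 17.7 and 12.1 times in Thy1-, and 4.85 times in the culture. On chromosome 8, miR-27a had 2.87 and 3.13 times the counts of miR-23a in Thy1+, 2.96 and 1.97 times in Thy1-, and 1.21 times in the culture. Members of 1 cluster were thus not in a fixed proportion, and in both clusters the miR-27 member was lowest against its miR-23 member in the culture. miR-24 had 1.08 and 0.746 times the summed counts of miR-23 and miR-27 in Thy1+, 0.601 and 0.515 times in Thy1-, and 1.501 times in the culture.

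The members' fold changes were taken from a test across all miRNAs (edgeR, relative to the bulk of miRNAs). Between Thy1+ and Thy1-, 0 of the 5 members were called, where 28.0% of the 425 miRNAs tested were. DESeq2 also called 0 of the 5, and 0 had an unadjusted p under 0.05 in edgeR. The log2 fold changes were 0.51 (SE 0.49) for miR-23a, 0.79 (SE 0.49) for miR-27a, -1.001 (SE 0.51) for miR-23b, -0.87 (SE 0.50) for miR-27b and 0.18 (SE 0.54) for miR-24. With tags of at least 20 bases alone, miR-23a was at 1.39 (SE 0.48) and had an unadjusted p under 0.05, but was not called. miR-27b was at -1.47 without Thy1+ replicate 1 and at -0.42 without Thy1+ replicate 2. The value of miR-24 turned to -0.58 without Thy1+ replicate 1 and to -0.09 without Thy1- replicate 2. The median was 0.18 over the members and -0.07 over all miRNAs tested.

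Against Thy1+, 3 of the 5 members were called higher in the culture, where 22.3% of 470 miRNAs were called in either direction. Since the members were chosen with these results known, nothing is read from that count. The called members were miR-23a at log2 3.16 (SE 0.59), miR-23b at 2.49 (SE 0.61) and miR-24 at 2.14 (SE 0.64). miR-27a was at 1.85 (SE 0.59) and miR-27b at 0.76 (SE 0.62), both not called. miR-27a was called as well, making 4 members, by DESeq2, without a filter on low counts, with tags on 1 name alone, with the culture and Thy1+ alone in the fit, and without Thy1- replicate 2. miR-24 was no longer called under RLE scaling or with tags of at least 20 bases, which left miR-23a and miR-23b. Without either Thy1+ library, members and all other miRNAs alike lost their calls. Without Thy1- replicate 1, miR-23b and miR-24 lost theirs. The median was 2.14 over the members and -0.09 over all miRNAs.

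Against Thy1-, 3 of the 5 were called higher in the culture as well, where 34.9% of 470 were called in either direction. They were miR-23a at log2 3.62 (SE 0.59), miR-27a at 2.59 (SE 0.59) and miR-24 at 2.27 (SE 0.64). miR-23b was at 1.44 (SE 0.61) and miR-27b at -0.16 (SE 0.63). With the culture and the Thy1- libraries alone in the fit, neither a member nor any other miRNA was called. The call of miR-27a was lost without Thy1+ replicate 2. The call of miR-24 was lost without any 1 of the 4 fresh libraries. The median was 2.27 over the members and -0.15 over all miRNAs. Both comparisons share the culture library, which is single and was assumed to vary like the fresh groups.

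These fold changes depend on the scaling of the libraries. Scaled to total counts, the median of all miRNAs moved by 0.58 for Thy1+ against Thy1-, by -1.64 for the culture against Thy1+ and by -1.04 for the culture against Thy1-. Between the fresh fractions miR-23a was then at 1.06, miR-27a at 1.31, miR-23b at -0.45, miR-27b at -0.38 and miR-24 at 0.65, none of them called. Under it miR-23a remained higher in the culture, at 1.51 against Thy1+ and 2.57 against Thy1-, of which only the latter was called, alone among the members. miR-27b turned from 0.76 to -0.86 against Thy1+, matching the lower CPM of the culture, and neither value was called. The a shares given above are unaffected.

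**Figure D3:**
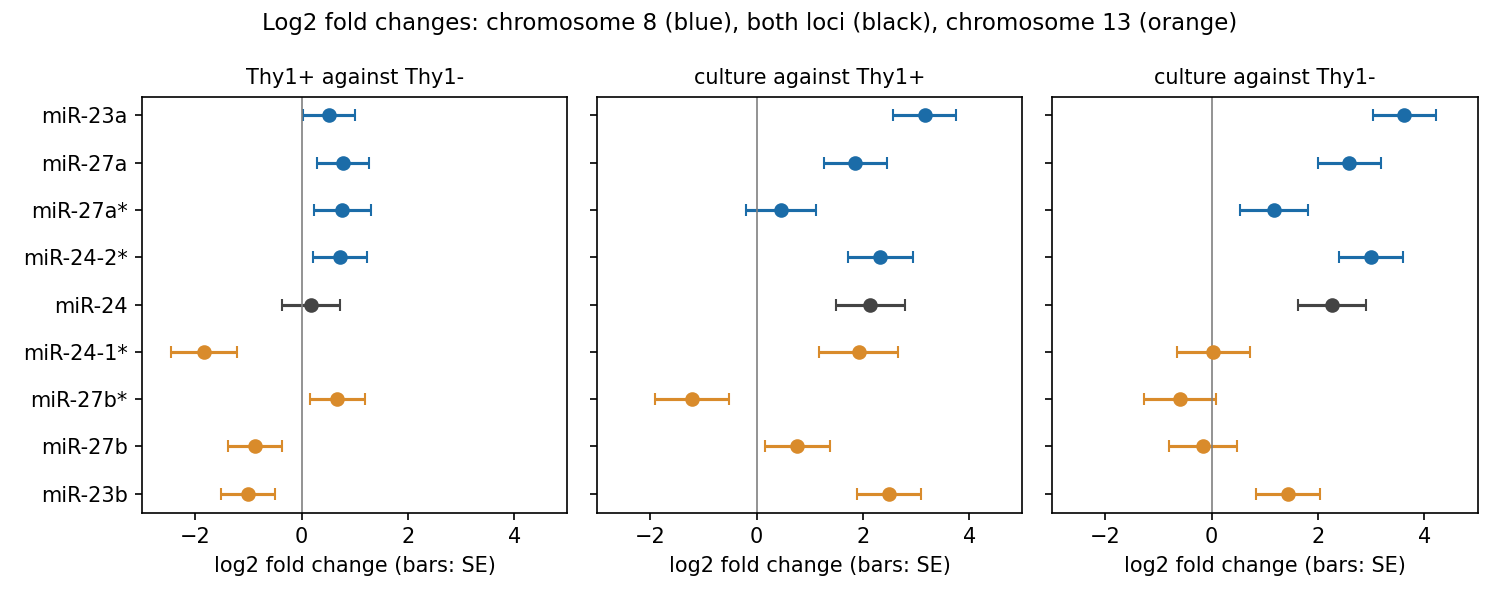
Log2 fold change (horizontal; bars are SE) of the 5 miRNAs and the 4 partner strands (vertical) in the 3 comparisons, with chromosome 8 products in blue, chromosome 13 products in orange and miR-24 in black. In the culture miR-23a lies farthest to the right, at 3.16 against Thy1+ and 3.62 against Thy1-.

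The partner strands are other tags than those of the members, though from the same hairpins and libraries. miR-24-2* was at 320 and 389 CPM in Thy1+, 137 and 151 CPM in Thy1-, and 563 CPM in the culture, so that the groups did not overlap and stood in the order of miR-23a. It was called higher in the culture against Thy1+ at log2 2.33 (SE 0.61, edgeR adjusted p = 0.0288) and against Thy1- at 2.99 (SE 0.61, edgeR adjusted p = 0.00813). Against Thy1+ the first call was lost without either Thy1+ library or Thy1- replicate 1, and under scaling to total counts (log2 0.67). The second was lost without Thy1+ replicate 2 or Thy1- replicate 1, and with the culture and Thy1- alone in the fit.

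The groups stood in another order for miR-27b* than for miR-27b. miR-27b* was at 492 and 444 CPM in Thy1+, 177 and 219 CPM in Thy1-, and 64.6 CPM in the culture, so that Thy1+ was above Thy1-, where miR-27b overlapped. Its log2 fold changes were 0.67 (SE 0.52, edgeR adjusted p = 0.358) for Thy1+ against Thy1-, -1.21 (SE 0.70, adjusted p = 0.233) for the culture against Thy1+ and -0.59 (SE 0.68, adjusted p = 0.523) against Thy1-. Scaled to total counts, miR-27b* was called lower in the culture against Thy1+, at log2 -2.86 (edgeR adjusted p = 0.0192). The adjusted p was between 0.148 and 0.405 under the other alternatives. As a share of both strands of its hairpin, miR-27b* made up 9.62% and 13.6% in Thy1+, 2.93% and 5.43% in Thy1-, and 3.04% in the culture. The fresh fractions did not overlap, and the culture was within the range of Thy1-. For the other hairpins the fresh fractions overlapped in this share. miR-27a* made up 20.3% and 25.3% in Thy1+, 16.2% and 31.9% in Thy1-, and 10.1% in the culture. The partner strands of miR-24 together made up 4.53% and 10.003% in Thy1+, 3.64% and 6.31% in Thy1-, and 7.04% in the culture.

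miR-27a* was at 285 and 443 CPM in Thy1+, 124 and 158 CPM in Thy1-, and 156 CPM in the culture. It was not called in any comparison, with edgeR adjusted p-values of 0.314, 0.656 and 0.186 for Thy1+ against Thy1-, the culture against Thy1+ and the culture against Thy1-. Part of its count came from tags under 18 bases, namely 25.8% and 25.2% in Thy1+, 11.4% and 6.33% in Thy1-, and 1.38% in the culture. Tags that began past the first base made up 26.2% and 25.2%, then 11.1% and 6.72%, then 1.51%. Those with mismatches made up 28.5% and 28.3%, then 16.1% and 10.2%, then 5.90%. The levels and strand shares of miR-27a* include all these tags. With tags that had 0 mismatches its log2 fold change between the fresh fractions was 0.52 in place of 0.77. Its fold change of 0.46 in the culture against Thy1+ turned to -1.22 under scaling to total counts.

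miR-24-1*, the rarest product, had 5 and 7 counts in Thy1+, 58 and 47 in Thy1-, and 39 in the culture, at 5.34, 7.39, 22.8, 9.57 and 7.63 CPM. Its log2 fold change between the fresh fractions was -1.84 (SE 0.62, edgeR adjusted p = 0.0596), the lowest of the 9 products. It was not called, except without a filter on low counts (log2 -1.92). In the culture it was at 1.92 against Thy1+ (edgeR adjusted p = 0.0880; called at 2.04 without that filter) and at 0.03 against Thy1- (edgeR adjusted p = 0.977).

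The 3′ ends of the tags were not used to choose the members, and the tests of them were not among those planned at the outset. They were described in tags that were placed on 1 name, began at its first base and had 0 mismatches. The files hold no tag that ends past the mature name, so longer 3′ forms are not measured here. miR-27b ended 1 base short far more often than miR-27a. Tags of 20 bases made up 28.0% and 29.7% of miR-27b in Thy1+, 35.3% and 39.5% in Thy1-, and 25.6% in the culture. For miR-27a they made up 9.49% and 6.07%, then 11.4% and 7.34%, then 10.1%. The share was higher for miR-27b in 5 of 5 libraries, by 22.7 ± 6.35 percentage points (SD, n = 5). The two-sided exact paired permutation p was 0.0625, the smallest that 5 libraries allow, and 0.167 when adjusted over the 8 differences between an a and a b form that were tested. Here and in the same test below, the 5 libraries come from different cell groups and are not replicates of 1 condition.

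miR-27b also carried another last base in many tags of full length. Of its tags of 21 bases, 14.4% and 14.8% in Thy1+, 22.7% and 24.5% in Thy1-, and 21.4% in the culture ended in a base other than the C of the mature name. For miR-27a the shares were 4.05% and 3.13%, then 5.12% and 2.56%, then 5.14%. The share was higher for miR-27b in 5 of 5 libraries, by 15.6 ± 4.69 percentage points (SD, n = 5), with the same exact p of 0.0625 and adjusted p of 0.167. Nearly all of these bases were A or T. In Thy1- they were A in 11.1% and 11.9% of the tags and T in 11.5% and 12.5%, and in the culture A in 14.8% and T in 6.47%. Over all names with at least 100 counts in full-length tags, the median share with another last base was between 1.34% and 2.77% by library. miR-27b ranked between 8th and 14th of 178 to 234 names.

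**Figure D4:**
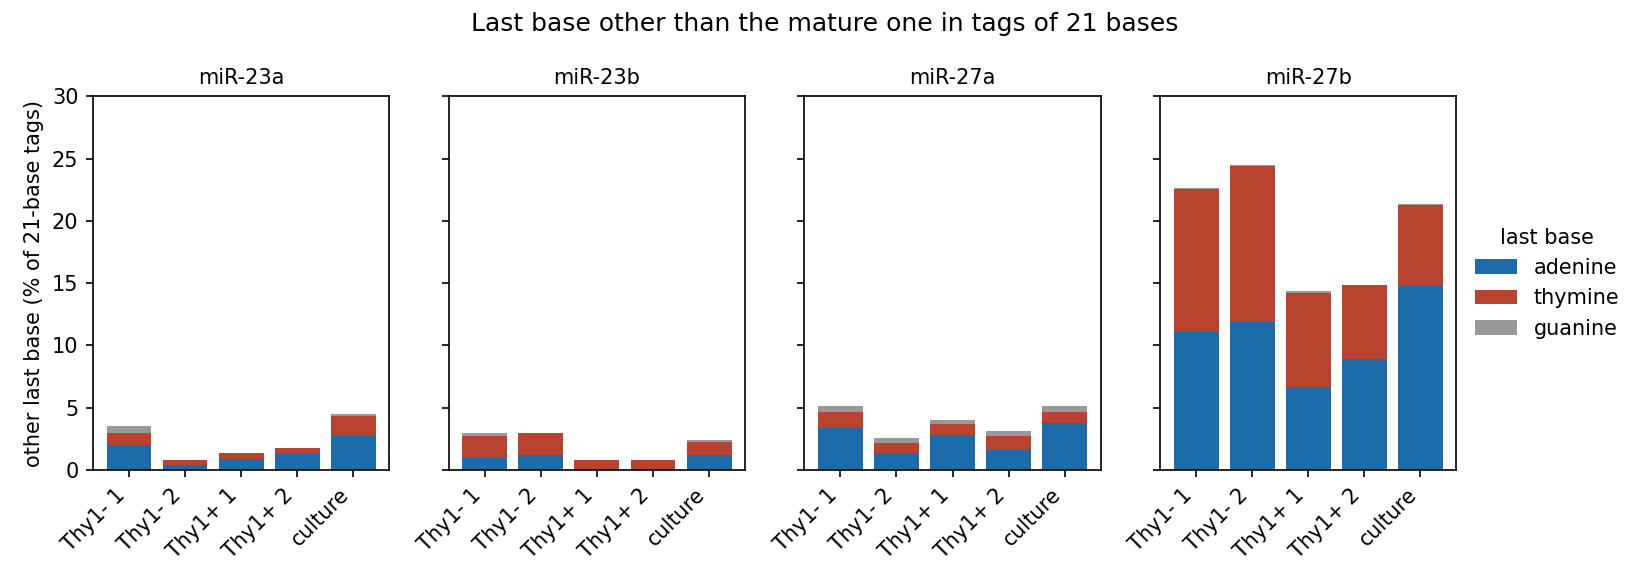
Tags of 21 bases with a last base other than the mature one (vertical, percent of tags of that length) by library (horizontal) for miR-23a, miR-23b, miR-27a and miR-27b, split by the base found. miR-27b lies between 14.4% and 24.5%, and miR-27a, miR-23a and miR-23b lie at 5.14% or lower in every library.

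For miR-23 the shortened tags differed between the fresh fractions. Tags of 19 bases made up 2.48% and 6.87% of miR-23a in Thy1+, 30.4% and 33.3% in Thy1-, and 2.67% in the culture. The Thy1- libraries were far above the others. For miR-23b, tags of 19 bases made up 2.78% and 2.35% in Thy1+, 3.68% and 4.06% in Thy1-, and 1.29% in the culture. The difference of miR-23b from miR-23a over the 5 libraries was -12.3 ± 14.4 percentage points (SD, n = 5). Its two-sided exact paired permutation p was 0.125, adjusted to 0.167. This mean pools different cell groups, and the gap was wide in Thy1- alone. An 18-base tag of either form followed by an added T would also be counted here as miR-23a. Exact 18-base tags, which both forms share, had 28 and 27 counts in Thy1+, 201 and 377 in Thy1-, and 94 in the culture. Whether tags with an added T were among those of 19 bases was not tested.

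Among all tags of miR-23a, including those shared with miR-23b, 7.64% and 11.3% ended at least 2 bases short in Thy1+, 45.6% and 52.3% in Thy1-, and 4.41% in the culture. The medians over all names with at least 100 counts in such tags were between 5.52% and 9.35% in the 5 libraries. miR-23a ranked 19th of 255 and 22nd of 278 names in Thy1-, and 96th of 215, 63rd of 224 and 142nd of 242 elsewhere.

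These short tags touch the balance of miR-23. A tag of 18 bases stops before the base that separates the forms, and a tag of 19 bases is assigned by its last base alone. Tags shared by miR-23a and miR-23b held 6.91% and 6.70% of the counts of both in Thy1+, 18.4% and 20.7% in Thy1-, and 2.69% in the culture, and were split equally. With tags of at least 20 bases alone, the miR-23a share was 30.4% and 24.5% in Thy1-, 62.7% and 64.8% in Thy1+, and 73.4% in the culture. The order of the groups was kept, and the distance of Thy1- from the others was larger.

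**Figure D5:**
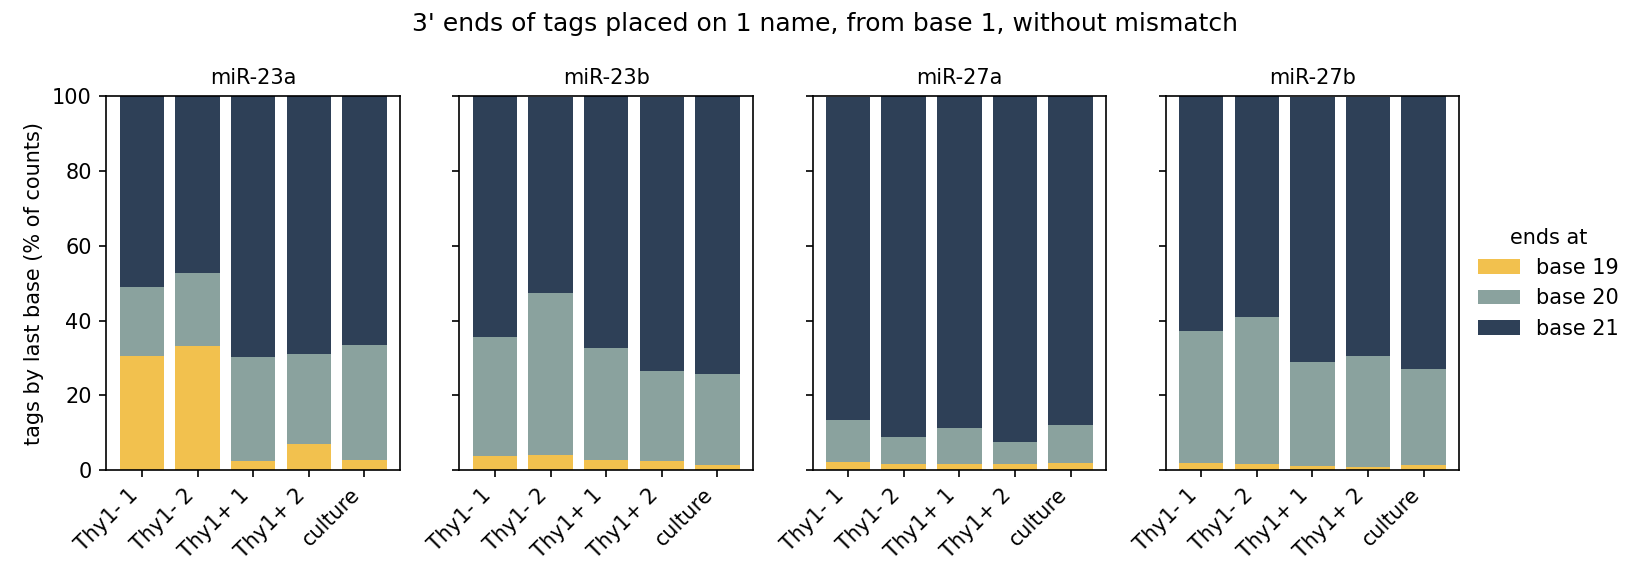
Position of the last base of tags (vertical, percent of unmixed tags from base 1 without mismatch) by library (horizontal) for miR-23a, miR-23b, miR-27a and miR-27b. Tags ending at base 19 reach 30.4% and 33.3% of miR-23a in Thy1-, and 20-base tags are more frequent for miR-27b than for miR-27a in every library.

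miR-24 had a 3′ end profile of its own that was alike in order in all 5 libraries. Its complete form of 22 bases made up 66.3% and 64.0% in Thy1+, 66.1% and 59.3% in Thy1-, and 63.8% in the culture. The next most frequent form was 2 bases short, at 20 bases, with 20.6% and 23.1%, then 22.1% and 25.0%, then 25.2%. The form of 21 bases made up between 8.41% and 11.4% and was the rarer of the shortened pair in all 5 libraries.

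For each member the miRNAs with the most similar pattern over the 5 libraries were looked up among 225 others with a mean of at least 100 CPM. The measure was the root mean square difference of log2(CPM + 1) after centring on the mean of each miRNA. miR-21 was nearest to miR-23a (0.31 on the log2 scale), followed by miR-221 (0.47). miR-21 stood at 27552 and 32737 CPM in Thy1+, 11709 and 11526 CPM in Thy1-, and 118930 CPM in the culture. Nearest to miR-27a were miR-21* (0.33) and miR-878-5p (0.35). Nearest to miR-23b were miR-26a (0.24) and miR-29c (0.24), and nearest to miR-27b were miR-30c-2* (0.13) and miR-320 (0.28). miR-191 (0.47) and miR-143 (0.49) were nearest to miR-24. For miR-23b, miR-24 was nearest among the products of these hairpins (0.62), with miR-27b at 0.70, so that the b forms were less like each other than miR-23a and miR-27a were (0.52).

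Marker miRNAs of other cell types that a testis fraction can hold are given beside these levels, and none of them was at 0 in any library. The summed level of both endothelial miR-126 products was 1918 and 2605 CPM in Thy1+, 964 and 1678 CPM in Thy1-, and 562 CPM in the culture. In CPM this sum was lowest in the culture. By edgeR, miR-126-3p was at log2 -0.37 (SE 0.69) and miR-126-5p at -0.12 (SE 0.71) in the culture against Thy1+. Against Thy1- they were at -0.29 (SE 0.69) and 0.18 (SE 0.70). The 6 mesenchymal miRNAs summed to 27211 and 38087 CPM in Thy1+, 46252 and 30853 CPM in Thy1-, and 64977 CPM in the culture. The sum was highest in the culture, where miR-143 alone held 37950 CPM. By edgeR, miR-145 was at log2 -0.19 (SE 0.70) in the culture against Thy1-, where the other mesenchymal miRNAs were above 0. White blood cell miRNAs, 5 in number, summed to 14904 and 26540 CPM in Thy1+, 2017 and 1346 CPM in Thy1-, and 937 CPM in the culture. Of these, miR-155 was at log2 1.05 (SE 0.59, edgeR) in the culture against Thy1+, where the others were below 0. Against Thy1-, miR-155 was at 4.55 (SE 0.62). The 3 red blood cell miRNAs summed to 252 and 179, 1344 and 1475, and 12.5 CPM in Thy1+, Thy1- and the culture. In the same order, the 2 gonadal products of miR-202 summed to 1138 and 2205, 18584 and 3712, and 173 CPM. The part of these cells in the levels of the 5 members was not tested.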

How the data were processed

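Small RNA was sequenced from 5 libraries, prepared by Illumina's small RNA methods (alternative v1.5 among them), per the labels' protocols. The authors deposited raw counts per sequence tag, without normalization, with the mature miRNA names (miRBase 12.0, per the file names) on which a tag was placed, its position and up to 2 mismatches. Tags span 15 to 25 bases, though the file names state up to 35. The submitters' processing notes name DESeq. For the aligner, the adapter removal and the genome build, the sources used here name none. Totals are miRNA counts, not sequencing depths.

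Each tag was given to the name of its best placement, and ties were split equally and sums rounded. Recovery of different miRNAs during ligation was not calibrated, so orders between miRNAs are orders of counts. Thy1+ and Thy1- were compared with edgeR 4.0.16 under R 4.3.3 (quasi-likelihood test, TMM scaling, filterByExpr, two-sided, Benjamini-Hochberg over all miRNAs tested, threshold 0.05) on the 4 fresh libraries, and the culture with each fraction on all 5. DESeq2 1.42.0 was an alternative, and the edgeR script was tested on simulated data. TMM factors were 1.40 and 1.73 in Thy1+, 1.08 and 0.845 in Thy1-, and 0.454 in the culture. Shares and intervals used Python 3.11.15 and SciPy 1.17.1. Hairpin positions and mature sequences are RefSeq's (GRCm38.p6), and gene overlaps GENCODE M21.

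The members and lists were chosen with earlier results of these data known. Named miRNAs are the 5 members, the 4 partner strands in the files, the 2 nearest patterns of each member, and markers from the cell type lists.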

Additional observations from a re-analysis of the deposited data

How the results depend on the processing

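Between Thy1+ and Thy1-, 0 members were called under any alternative run. With replicate number as a block, 0 of the 5 were called too (miR-24 at log2 0.08), and 32 of 425 miRNAs in place of 119. The numbers were not shown to pair the libraries, since the deviations of Thy1+ 1 and Thy1- 1 from their group means had a correlation of -0.06 across 425 miRNAs. Without a filter on low counts, 1 partner strand was called in that comparison (miR-24-1*, log2 -1.92) in place of 0, and 2 in place of 1 in the culture against Thy1+. Scaling to total counts left 0 members called in the culture against Thy1+ and 1 against Thy1-, in place of 3 each. With the culture and Thy1- alone, 0 members and 0 partner strands were called, as were 0 of 451 miRNAs.

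In the culture against each fraction, the calls of members and partner strands depended on which fresh library was left out. RLE scaling and tags of at least 20 bases each left 2 members in the culture against Thy1+, without miR-24, and DESeq2 called 4, with miR-27a. Left with 1 library, a group was assumed to vary like the others. Without either Thy1+ library, 0 miRNAs at all were called between the fresh fractions or between the culture and Thy1+. The cause was not tested.

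Values that changed sign were those of miR-24 between the fresh fractions (-0.58 to 0.71 with 1 library left out, -0.09 without Thy1- replicate 2), and under total scaling in the culture against Thy1+ those of miR-27b (-0.86) and miR-27a* (-1.22). miR-24-1* in the culture against Thy1- turned from 0.03 to -1.06 under total scaling, -0.0028 with tags of at least 20 bases, -0.18 with the culture and Thy1- alone, and -0.38 to 0.38 with 1 library left out. The miR-23a share in Thy1- moved to 27.5% with tags of at least 20 bases, an alternative chosen after seeing the data. The miR-27a share in the culture moved to 43.5% with 0 mismatches. The other 43 of 45 share values stayed within the replicate SD or the counting interval. Those with a fresh library left out could not do otherwise, since each of 2 libraries always lies within the SD of their mean. The 32 values of the 3′ end differences with a fresh library left out kept their direction. Where a difference had the same direction in all 5 libraries, this outcome was fixed in advance.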
